A study of Mus musculus with 21 samples.

Results

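The genes described here are 7 members of the mouse membrane-spanning 4-domains subfamily A (MS4A) family: Ms4a4a, Ms4a4b, Ms4a4c, Ms4a6b, Ms4a6c, Ms4a6d and Ms4a7. They were chosen by symbol, matched to the Ensembl gene identifiers of the count and FPKM tables, and all 7 were found among the 55401 genes of the count table. The annotation holds 19 Ms4a genes, and the other 12 are given by their counts. RNA came from the forebrains of 21 mice in 6 groups. The parental groups E2H, E3H and E4H (n = 3 each) were homozygous for the humanized APOE2, APOE3 or APOE4 allele, and the mice of PS/E2H, PS/E3H and of PS/E4H (n = 4 each) carried in addition the PS19 transgene, which encodes human tau with the P301S mutation. All 21 mice therefore had human APOE in place of the mouse gene. The APOE lines were kept on C57BL6, and the PS19 mice came from crosses of these lines with a PS19 line kept on B6/C3H. The prion protein promoter drives the transgene, mainly in neurons. The PS19 mice were killed when their hindlimbs were paralyzed and the mice of the 3 parental groups as adults within a single age range, so that the transgene, strain background, paralysis and age at death cannot be told apart. Mice of E2H, E3H and PS/E3H were all male, whereas E4H, PS/E2H and PS/E4H included females in differing shares. Comparisons of PS19 with parental mice were therefore uneven in sex for APOE2 and APOE4, and even for APOE3. Of the APOE comparisons, only E2H vs E3H was even in sex, and all interactions involved uneven groups. The labels do not give the sex of each mouse, and its part in the results was not tested.

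MS4A proteins span the membrane repeatedly and sit at the surface or in the endosomes of immune cells. The family includes CD20 (Ms4a1), the B cell antigen, and Ms4a2, the beta chain of the high-affinity IgE receptor on mast cells. The human MS4A cluster is a risk locus for Alzheimer's disease, and variants in it are associated with the level of soluble TREM2, a microglial lipid receptor, in cerebrospinal fluid. In mice, Ms4a4a, Ms4a6c, Ms4a6d and Ms4a7 are known mainly from macrophages, microglia and monocytes, and Ms4a4b and Ms4a6b from T cells as well. In bulk forebrain, fewer cells of a type and less RNA per cell cannot be told apart.

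Library totals ran from 59265500 to 75932200 counts per mouse (median 63751700). Prnp, whose promoter drives the PS19 transgene, was at 818 to 1072 CPM (counts scaled to the size of the library) in the 9 parental mice and at 1390 to 1927 CPM in the 12 PS19 mice. These ranges did not overlap. Mouse Apoe, replaced by the human gene in all groups, was at 9.83 to 16.5 CPM. Mapt, the mouse tau gene, was at 425 to 505 CPM in parental and 420 to 504 CPM in PS19 mice.

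The 7 genes lie on chromosome 19, within chr19:11321039-11604849 (GRCm38, GENCODE annotation), a span of 284 kb that also holds Ms4a4d. Ms4a7 and Ms4a6d lie on the minus strand at the outer ends, and Ms4a4a, Ms4a4c, Ms4a4b, Ms4a6c and Ms4a6b lie between them on the plus strand in that order. Within the coding sequences, Ms4a4b and Ms4a4c were 91.8% identical, Ms4a6b and Ms4a6d 80.2%, Ms4a6b and Ms4a6c 74.6%, and Ms4a6c and Ms4a6d 67.3%. Ms4a4a matched Ms4a4c at 59.9% and Ms4a4b at 59.7%, and all other pairs were between 46.6% and 52.6% identical. The share of 50-base windows of a gene's transcripts that also occurred in transcripts of another gene was 10.5% for Ms4a6c, 8.19% for Ms4a4c, 3.57% for Ms4a6b, 2.54% for Ms4a6d, 2.40% for Ms4a4b, 0.306% for Ms4a7 and 0% for Ms4a4a. By this share, counts of Ms4a6c and Ms4a4c are the most exposed to reads that the counting could assign to another gene. By number of shared windows, Ms4a4b (212) and Ms4a6c (211) stood highest, against 163 for Ms4a6b and 143 for Ms4a4c. Ms4a6c shared most windows with Ms4a6b (117), and Ms4a4c with Ms4a4b (135).

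The bases before the transcription start are shown for the 2 pairs of neighbours whose upstream sequences aligned with each other at length, because the fold changes of Ms4a6c and Ms4a6b, and the likeness of Ms4a4c and Ms4a4b across mice, are compared below. Sequences are from RefSeq (GRCm38.p6), plus strand, from 250 bases before the start up to the last base before any annotated Ms4a exon. Positions are chr19:11469118-11469365 for Ms4a6c, chr19:11518309-11518452 for Ms4a6b, chr19:11407411-11407660 for Ms4a4c and chr19:11443308-11443552 for Ms4a4b. The RefSeq starts of Ms4a6b (11518559) and Ms4a4c (11407661) lie inside their GENCODE genes, which begin at 11516512 and 11404770. The stretches of these 2 genes are thus upstream of the RefSeq start only. Capitals mark GAAANNGAA, the core of an interferon-stimulated response element, and GGAAGT, an ETS-type core.
Ms4a6c: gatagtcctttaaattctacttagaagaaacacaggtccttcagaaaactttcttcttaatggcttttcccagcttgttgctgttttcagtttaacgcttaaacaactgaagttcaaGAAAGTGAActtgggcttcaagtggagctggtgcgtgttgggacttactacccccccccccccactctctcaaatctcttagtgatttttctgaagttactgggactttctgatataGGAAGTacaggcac
Ms4a6b: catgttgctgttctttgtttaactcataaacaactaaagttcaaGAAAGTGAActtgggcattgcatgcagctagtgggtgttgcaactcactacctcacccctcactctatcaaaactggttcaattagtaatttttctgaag
Ms4a4c: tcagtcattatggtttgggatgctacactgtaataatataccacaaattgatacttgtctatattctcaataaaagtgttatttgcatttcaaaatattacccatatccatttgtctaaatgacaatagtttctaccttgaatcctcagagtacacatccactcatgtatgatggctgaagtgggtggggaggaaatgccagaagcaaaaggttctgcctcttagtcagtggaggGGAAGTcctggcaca
Ms4a4b: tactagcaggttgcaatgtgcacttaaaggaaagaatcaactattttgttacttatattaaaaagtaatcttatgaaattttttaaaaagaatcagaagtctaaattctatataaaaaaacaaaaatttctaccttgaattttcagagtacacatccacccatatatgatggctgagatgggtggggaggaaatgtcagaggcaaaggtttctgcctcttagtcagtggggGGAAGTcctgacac

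In the 250 bases upstream, Ms4a6c and Ms4a6b were identical at 148 of 180 aligned positions (82.2%), and Ms4a4c and Ms4a4b at 117 of 133 (88.0%). Both strands were searched for 4 motifs in 6 members with an entry, Ms4a7 having 2 start sites. GAAANNGAA occurred upstream of Ms4a6b, Ms4a6c and Ms4a7 (3 of 6 genes, 4 of 7 start sites), against 7.13% of all 32851 promoters. GGAAGT occurred upstream of 5 of 6 genes (Ms4a4b, Ms4a4c, Ms4a6b, Ms4a6c and Ms4a7) and 5 of 7 start sites, against 19.7% of all promoters. The matches of Ms4a6b, at -85 and -43, lie past the printed bases, where an annotated Ms4a exon begins. The 2 aligned pairs were counted as separate genes. TGANTCA, an AP-1 type site, occurred upstream of Ms4a7 alone (6.75% of all promoters), and GAGGAAG, a PU.1-type site, upstream of none of the 6 (10.6% of all promoters). None of the 4 motifs occurred upstream of Ms4a4a. A match describes the letters only, and no binding was measured.

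Levels are compared between genes as FPKM, a fragment count scaled to both transcript length and library size. All 7 genes were low. Ms4a6d, a macrophage member of the family, had the highest mean FPKM in each of the 6 groups: 0.603 ± 0.0866 (SD, n = 3) in E2H, 0.631 ± 0.177 in E3H, 0.532 ± 0.133 in E4H, and 2.09 ± 1.02 (n = 4) in PS/E2H, 2.10 ± 0.833 in PS/E3H and 2.64 ± 0.500 in PS/E4H. In the parental mice no other member overlapped with it. Ms4a6b stood next in the parental groups, at 0.241 ± 0.0538 in E2H, 0.233 ± 0.0162 in E3H and 0.269 ± 0.0676 in E4H. In the PS19 groups Ms4a6c took the place next to Ms4a6d, at 1.60 ± 1.12 in PS/E2H, 1.55 ± 0.733 in PS/E3H and 1.74 ± 0.639 in PS/E4H, and its range overlapped that of Ms4a6d in all 3. Ms4a4b was at or below 0.0523 FPKM in all 21 mice.

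Much of the order of the middle members was not resolved by the spread between mice. In E2H, Ms4a6b, Ms4a4a, Ms4a6c, Ms4a4c and Ms4a7 followed each other with overlapping neighbours. In PS/E2H, the same was true from Ms4a6d down to Ms4a7, and Ms4a4b alone lay apart below. In E3H, Ms4a4a (0.154 to 0.182 FPKM) lay apart from Ms4a7 (0.0867 to 0.102), and in E4H, Ms4a6b (0.215 to 0.344) from Ms4a6c (0.139 to 0.181). In PS/E4H, Ms4a6c (1.07 to 2.47 FPKM) lay apart from Ms4a4a (0.616 to 0.887), and Ms4a4a from Ms4a6b (0.381 to 0.593).

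Summed over the 7 members, FPKM was 1.46 ± 0.142 in E2H, 1.37 ± 0.243 in E3H and 1.12 ± 0.208 in E4H, against 5.30 ± 2.76 in PS/E2H, 5.66 ± 2.26 in PS/E3H and 6.35 ± 1.36 in PS/E4H. Ms4a6d made up 41.7% ± 7.98, 45.6% ± 4.47 and 47.1% ± 4.89 of the sum in E2H, E3H and E4H, and 40.6% ± 4.64, 37.2% ± 8.34 and 41.7% ± 1.98 in the PS19 groups. The share of Ms4a6c was 13.5% ± 9.08, 12.9% ± 4.94 and 14.0% ± 1.29 in the parental groups and 28.3% ± 5.54, 27.0% ± 4.15 and 26.9% ± 6.03 in the PS19 groups. The share of Ms4a6b went the other way, from 16.4% ± 2.24, 17.3% ± 2.99 and 24.4% ± 7.23 to 9.68% ± 0.934, 8.86% ± 0.821 and 8.50% ± 2.41. These shares are descriptions without a test.

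**Figure D1:**
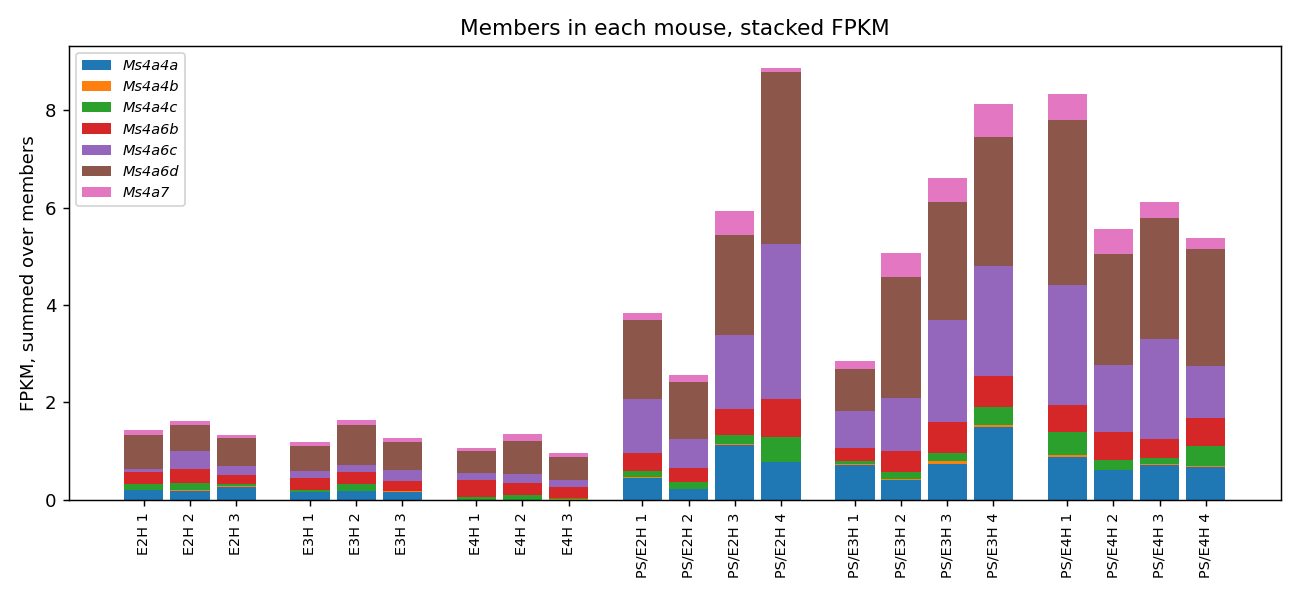
FPKM of the 7 members stacked for each mouse (x axis, group and mouse number; y axis, FPKM). The parental mice reach between 0.954 and 1.65 in sum and the PS19 mice between 2.57 and 8.87, with Ms4a6d and Ms4a6c the thickest layers in the latter.

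The first question was how the PS19 transgene changed these genes on each APOE background. Counts of all genes were tested with edgeR's quasi-likelihood test, and calls required at least a 2-fold change and a p below 0.05 after Benjamini-Hochberg adjustment. None of the 7 members was called in PS/E2H vs E2H, 4 were called higher in PS/E3H vs E3H (Ms4a4a, Ms4a6c, Ms4a6d and Ms4a7) and 5 in PS/E4H vs E4H (Ms4a4a, Ms4a4c, Ms4a6c, Ms4a6d and Ms4a7), and none was called lower. Of all genes tested, 0.451%, 1.20% and 2.40% were called higher in these comparisons. The median log2 fold change of the members was 1.44 in PS/E2H vs E2H, 2.15 in PS/E3H vs E3H and 2.21 in PS/E4H vs E4H, where the medians of all genes were -0.0152, -0.00428 and -0.00230. In PS/E2H vs E2H, 5 of 7 members had an unadjusted p below 0.05 by edgeR, as did 2203 of 20617 genes tested, and DESeq2 in place of edgeR called 2 (Ms4a6c and Ms4a6d).

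CPM values of the 2 groups did not overlap for 3 members in PS/E2H vs E2H and for 6 in each of PS/E3H vs E3H and PS/E4H vs E4H, always with the PS19 mice higher. Among all genes tested, 6.67%, 10.5% and 15% had groups that did not overlap with the PS19 mice higher. The 3 tau comparisons share no mice.

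**Figure D2:**
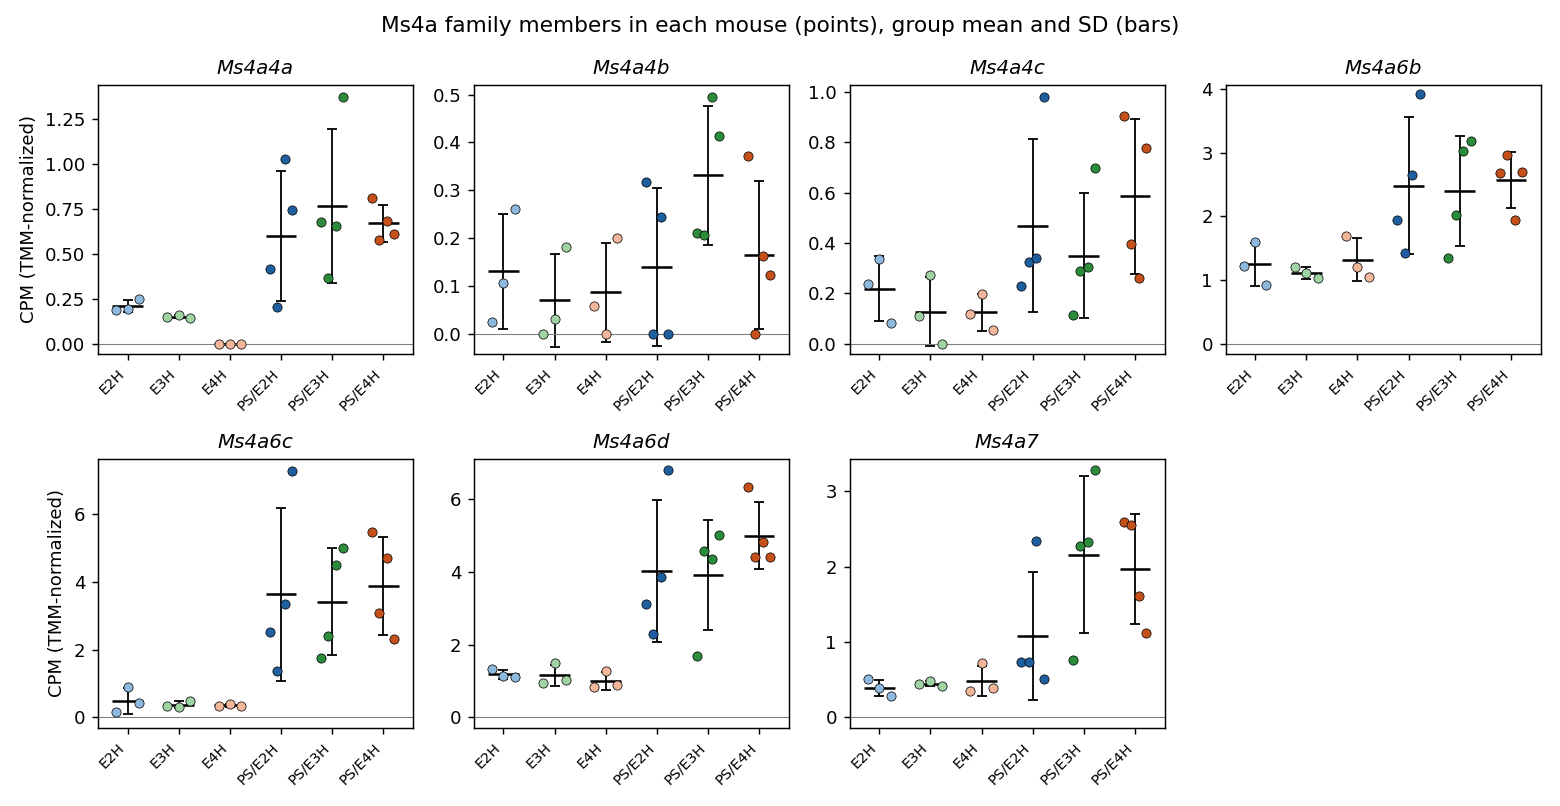
TMM-normalized CPM of each member (one panel per gene; y axis, CPM on a linear scale) in the 6 groups (x axis), with each mouse as a point and the group mean ± SD as bars. All PS19 mice lie above all parental mice for Ms4a6c and Ms4a6d, and the 3 E4H mice are at 0 for Ms4a4a.

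Ms4a6c, known from monocytes and macrophages, had the largest fold change of the members that were detected in all mice. It was at 0.146, 0.901 and 0.413 CPM in E2H, 0.339, 0.304 and 0.493 in E3H, and 0.327, 0.411 and 0.336 in E4H. In the PS19 mice it was at 2.52, 1.38, 3.36 and 7.28 CPM in PS/E2H, 1.75, 2.41, 4.51 and 5.0 in PS/E3H, and 5.46, 3.10, 4.71 and 2.30 in PS/E4H. All 12 PS19 mice lay above all 9 parental mice. The log2 fold change was 3.15 (SE 0.42, adjusted p = 0.00448) in PS/E3H vs E3H and 3.43 (SE 0.34, adjusted p = 3.13e-04) in PS/E4H vs E4H. It was 2.93 (SE 0.67, adjusted p = 0.0980) in PS/E2H vs E2H, which did not pass the threshold. DESeq2 (adjusted p = 0.0143) and a single fit of all 21 mice (adjusted p = 0.00860) called it there.

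Ms4a6d, the member of highest mean FPKM, was at 1.33, 1.13 and 1.10 CPM in E2H, 0.949, 1.49 and 1.02 in E3H and 0.833, 1.29 and 0.888 in E4H. It was at 3.12, 2.31, 3.87 and 6.81 CPM in PS/E2H, 1.68, 4.59, 4.37 and 5.02 in PS/E3H, and 6.34, 4.40, 4.83 and 4.40 in PS/E4H. Again no PS19 mouse fell among the parental mice, and the closest were PS/E3H mouse 1 and E3H mouse 2. The log2 fold change was 1.75 (SE 0.36, adjusted p = 0.0243) in PS/E3H vs E3H and 2.31 (SE 0.23, adjusted p = 3.10e-04) in PS/E4H vs E4H. In PS/E2H vs E2H the fitted change was of the same size, 1.75 (SE 0.36), with an adjusted p of 0.0642 (0.0491 with the replicate number as a block). Of the 7 fits with a mouse removed, 6 no longer called it in PS/E3H vs E3H, and it held without PS/E3H mouse 1 (adjusted p = 5.4e-04).

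Ms4a7, a marker of macrophages at the borders of the brain that is also found in microglia of diseased brain, was at 0.504, 0.389 and 0.289 CPM in E2H, 0.448, 0.480 and 0.415 in E3H, and 0.357, 0.717 and 0.390 in E4H. It was at 0.758, 2.28, 2.33 and 3.28 CPM in PS/E3H and 2.59, 2.55, 1.61 and 1.12 in PS/E4H. The log2 fold change was 2.26 (SE 0.44, adjusted p = 0.0206) in PS/E3H vs E3H and 2.0 (SE 0.39, adjusted p = 0.00906) in PS/E4H vs E4H. In PS/E2H, 3 mice were at 0.734, 0.735 and 0.506 CPM and mouse 3 was at 2.34. The log2 fold change in PS/E2H vs E2H was 1.44 (SE 0.56, adjusted p = 0.375), and 0.73 without PS/E2H mouse 3. The groups there were separated only by the gap between 0.504 CPM in E2H mouse 1 and 0.506 CPM in PS/E2H mouse 4. Removing any of the 3 E3H mice, or PS/E3H mouse 4, ended the PS/E3H call (adjusted p between 0.0545 and 0.101).

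Ms4a4a, expressed by alternatively activated macrophages, was counted sparsely. In the parental mice it had 14, 11 and 18 counts in E2H, 11, 10 and 11 in E3H, and 0 in all 3 E4H mice. In the PS19 mice it had 29, 12, 63 and 44 counts in PS/E2H, 48, 23, 41 and 96 in PS/E3H, and 50, 35, 42 and 39 in PS/E4H. In PS/E3H vs E3H the log2 fold change was 2.32 (SE 0.53, adjusted p = 0.0329). The adjusted p in PS/E4H vs E4H was 0.00102. In PS/E2H vs E2H the log2 fold change was 1.49 (SE 0.60, adjusted p = 0.392), and PS/E2H mouse 2 lay within the range of the E2H mice. The PS/E3H call was lost without each of the 3 E3H mice, PS/E3H mouse 3 or PS/E3H mouse 4 (adjusted p between 0.0548 and 0.136).

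Since E4H was at 0 for Ms4a4a, the fold change there is only bounded. Over the whole count table, 23659 values equalled 4, against 12137 equal to 3 and 7160 equal to 5, but 21231 equalled 1 and 16239 equalled 2, so that the worth of 1 read pair in counts is not settled. Of 1 and 4 counts per read pair, 4 gives the higher floor and was used. The floor for E4H was 3 read pairs over its 3 mice (12 counts, or 0.0554 CPM). Mean Ms4a4a in PS/E4H (0.668 ± 0.103 CPM, SD, n = 4) was 12.1 times this floor. The means of E2H and E3H were 3.77 and 2.72 times this floor. The floor covers counting error in E4H only. Counting error and spread of the other groups are not included, so that the true differences could be smaller than these values.

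Ms4a4c, which interferon is known to induce in monocytes, was at 18, 19 and 6 counts in E2H, 8, 17 and 0 in E3H and 8, 15 and 4 in E4H. It was at 16, 19, 21 and 58 counts in PS/E2H, 8, 18, 19 and 49 in PS/E3H and 56, 24, 16 and 50 in PS/E4H. It was called in PS/E4H vs E4H (log2 fold change 2.21, SE 0.65, adjusted p = 0.0438), where all PS/E4H mice lay above the E4H mice. Of the 7 fits with a mouse removed, only that without PS/E4H mouse 3 kept this call, and 6 of the 9 other settings ended it. In PS/E2H vs E2H and PS/E3H vs E3H the groups overlapped, with log2 fold changes of 1.10 (SE 0.69, adjusted p = 0.650) and 1.47 (SE 1.0, adjusted p = 0.451). In PS/E2H, mouse 4 alone (0.978 CPM) lay above the 3 others (0.230 to 0.341 CPM).

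Ms4a6b, which T cells express along with myeloid cells, had a smaller fold change than Ms4a6c, Ms4a6d and Ms4a7 in all 3 comparisons. It was at 1.22, 1.59 and 0.922 CPM in E2H, 1.21, 1.10 and 1.02 in E3H, and 1.70, 1.21 and 1.05 in E4H. It was at 1.94, 1.42, 2.65 and 3.91 CPM in PS/E2H, 1.35, 2.02, 3.03 and 3.18 in PS/E3H and 2.68, 2.97, 1.93 and 2.69 in PS/E4H. The groups overlapped in PS/E2H vs E2H alone. The log2 fold changes were 0.99 (SE 0.36, adjusted p = 0.336), 1.09 (SE 0.31, adjusted p = 0.0690) and 0.96 (SE 0.25, adjusted p = 0.0265) for E2H, E3H and E4H. The last passed the p threshold but not the 2-fold limit. DESeq2 called Ms4a6b in PS/E3H vs E3H (log2 fold change 1.10, adjusted p = 0.0139). Its neighbour Ms4a6c, with the aligned upstream sequence printed above, had log2 fold changes of 2.93, 3.15 and 3.43 in the same comparisons.

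Ms4a4b, a T cell member of the family, was at the limit of detection, with 0 to 19 counts in the parental mice and 0 to 31 in the PS19 mice. It was at 0 in 2 of 4 PS/E2H mice and 1 of 4 PS/E4H mice, and at 15, 13, 31 and 29 counts in PS/E3H. The log2 fold changes of 0.10 (SE 1.28, adjusted p = 0.990), 2.15 (SE 0.97, adjusted p = 0.234) and 0.90 (SE 1.24, adjusted p = 0.682) on the E2, E3 and E4 backgrounds did not pass the test, and the first turned negative without E2H mouse 1 or 2. With SEs of 0.97 to 1.28, a 2-fold change was not detectable at this depth.

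**Figure D3:**
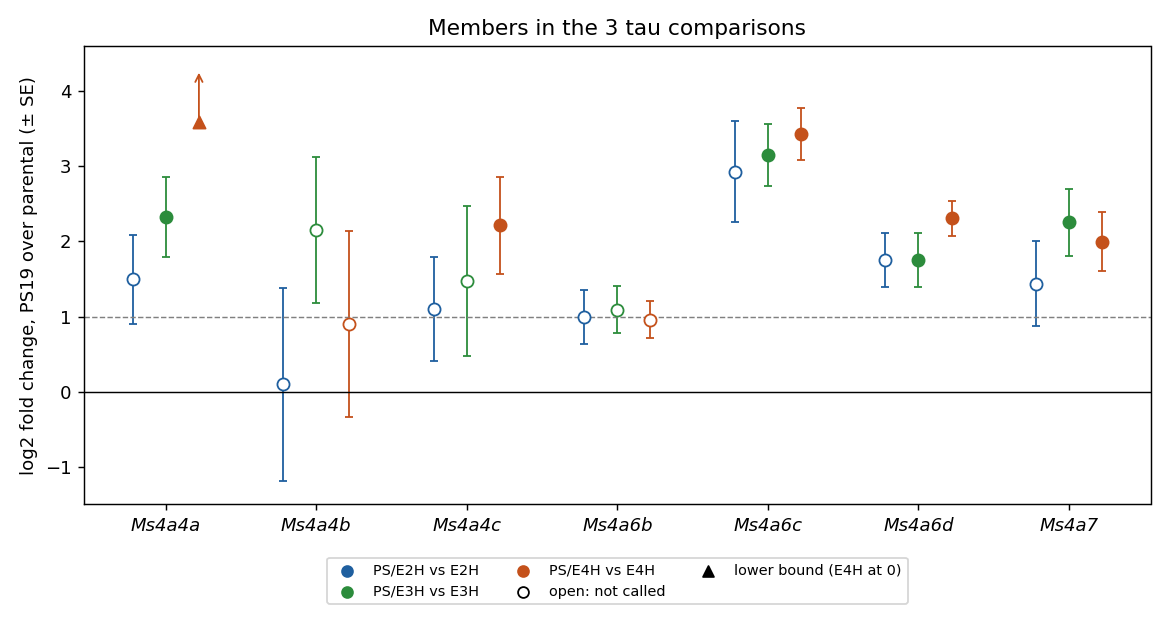
Log2 fold change (y axis, ± SE) of each member (x axis) in PS19 over parental mice on the 3 APOE backgrounds, with filled symbols for called genes, open symbols for the others, and a dashed line at the 2-fold limit. The points run from 0.10 for Ms4a4b to 3.43 for Ms4a6c. The triangle with an arrow (3.59) is the lower bound for Ms4a4a against E4H, from the PS/E4H mean over the E4H floor.

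In each PS19 group, a mouse was the highest or lowest of its group for most members. PS/E2H mouse 4 had the highest CPM of its group for 4 of 7 members, PS/E3H mouse 4 for 6 and PS/E4H mouse 1 for 6. PS/E2H mouse 4 also had the lowest value, ties included, for 2 members, Ms4a7 and Ms4a4b. PS/E2H mouse 2 and PS/E3H mouse 1 each had the lowest value, ties included, for 5 of 7. The summed FPKM ran from 2.57 in PS/E2H mouse 2 to 8.87 in PS/E2H mouse 4, from 2.84 in PS/E3H mouse 1 to 8.13 in PS/E3H mouse 4, and from 5.38 in PS/E4H mouse 4 to 8.33 in PS/E4H mouse 1. Relative to its mean, the spread of Ms4a6d was 48.7% in PS/E2H, 38.6% in PS/E3H and 18.4% in PS/E4H (SD over mean), and that of Ms4a6c 70.4%, 46.2% and 37.2%. Whether the spread differed between groups was not tested.

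The second question was whether APOE changed the members among mice of the same tau genotype. No member was called in any of the 6 APOE comparisons, which share groups with each other. The share of all genes called was 0.144% in E2H vs E3H, 0.10% in E4H vs E3H, 0.187% in E4H vs E2H, 0.108% in PS/E2H vs PS/E3H, 0.0197% in PS/E4H vs PS/E3H and 0.109% in PS/E4H vs PS/E2H. The lowest adjusted p values were those of Ms4a4a in E4H vs E2H (0.250) and in E4H vs E3H (0.310), where E4H was at 0. In E2H vs E3H, Ms4a4a again had the lowest (log2 fold change 0.47, SE 0.60, adjusted p = 0.757). A single fit of all 21 mice called Ms4a4a lower in E4H than in E3H (adjusted p = 0.0142) and than in E2H (adjusted p = 0.00182). No other call of a member was made in these 6 comparisons under the 9 other settings. At an unadjusted p below 0.05, edgeR had 1 member in each of E4H vs E3H and E4H vs E2H (Ms4a4a) and 0 in the 4 others. The difference rests on 10 to 18 counts per mouse in E2H and E3H.

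Among the PS19 groups, Ms4a7 was the member with the lowest adjusted p in PS/E2H vs PS/E3H (log2 fold change -1.0, SE 0.52, adjusted p = 0.455) and in PS/E4H vs PS/E2H (0.87, SE 0.47, adjusted p = 0.472). In PS/E4H vs PS/E3H it was Ms4a4c (0.73, SE 0.58, adjusted p = 0.844). For the most abundant members, Ms4a6d and Ms4a6c, the log2 differences were 0.35 (SE 0.29) and 0.18 (SE 0.36) in PS/E4H vs PS/E3H, 0.03 (SE 0.38) and 0.08 (SE 0.47) in PS/E2H vs PS/E3H, and 0.31 (SE 0.29) and 0.10 (SE 0.44) in PS/E4H vs PS/E2H. The lowest unadjusted p of these 6 differences was 0.263 by edgeR, for Ms4a6d in PS/E4H vs PS/E3H, which does not show that the groups were alike. The members not tested for too few counts were Ms4a4b in E2H vs E3H, E4H vs E3H, E4H vs E2H and PS/E4H vs PS/E2H, and Ms4a4c in E4H vs E3H.

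The third question was whether the size of the tau effect differed between APOE backgrounds, tested as an interaction and called at an adjusted p below 0.05. With edgeR, 0 members and 0% of all genes were called in each of the 3 interactions, with 847 to 2223 genes at an unadjusted p below 0.05. Ms4a4a had the lowest p of the members between E4H and E2H (unadjusted p = 4.85e-05, adjusted p = 0.182) and between E4H and E3H (unadjusted p = 6.98e-05, adjusted p = 0.526), and DESeq2 called the former (adjusted p = 0.00479). The E4H mice enter both at 0 counts, and the mean CPM of the PS19 groups was 0.597 in PS/E2H, 0.766 in PS/E3H and 0.668 in PS/E4H. Between E2H and E3H, Ms4a4b had the lowest (log2 difference -2.06, SE 1.80, adjusted p = 0.906). For Ms4a6c the tau effect in E4H exceeded that in E3H by 0.27 (SE 0.54) and that in E2H by 0.50 (SE 0.78) on the log2 scale, and for Ms4a6d by 0.55 (SE 0.44) and 0.55 (SE 0.43). The lack of calls in PS/E2H vs E2H is therefore not shown to be a smaller tau effect.

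Of the 12 other Ms4a genes, 4 (Ms4a5, Ms4a12, Ms4a13 and Ms4a18) were at 0 counts in all 21 mice, and the highest value of the others was 36 counts (Ms4a15). Ms4a1, which encodes CD20, was at 0 in 12 mice and never above 32 counts, and Ms4a2 was at 0 in 15 mice. None of the 12 was called, but those with too few counts were not tested and could not be called. Tmem176a and Tmem176b, which encode MS4A-related proteins of myeloid cells on another chromosome, were called in PS/E4H vs E4H, at log2 fold changes of 1.31 (SE 0.11, adjusted p = 1.27e-04) and 1.10 (SE 0.08, adjusted p = 6.83e-05). They were at 0.90 (SE 0.16, adjusted p = 0.0144) and 0.83 (SE 0.13, adjusted p = 0.00963) in PS/E3H vs E3H, under the fold limit. The values in PS/E2H vs E2H were 0.42 (SE 0.16, adjusted p = 0.371) and 0.44 (SE 0.12, adjusted p = 0.151).

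Other genes of the pathway and of the cells that could carry these transcripts were read from 14 lists. Among 12 disease-associated microglia genes, the induced program of microglia at amyloid and tau lesions, 4 were called higher in PS/E2H vs E2H, 8 in PS/E3H vs E3H and 8 in PS/E4H vs E4H. Cst7, a lysosomal protease inhibitor, rose by a log2 fold change of 4.14, 4.89 and 5.98, and Ctsd, a lysosomal protease with the highest FPKM of the list, by 1.11, 1.4 and 1.69. Csf1, a myeloid growth factor, had the smallest mean change (0.45, 0.41 and 0.62, none called). Among the 8 genes of the TREM2 receptor complex and its proteases, the pathway to which human MS4A variants have been linked, 1, 2 and 3 were called. Tyrobp, the TREM2 adaptor, was at 1.02 (adjusted p = 0.0767), 1.74 (adjusted p = 0.00213) and 1.93 (adjusted p = 4.37e-05), and Adam10, a protease that sheds TREM2, at -0.04, 0.02 and -0.08, not called. Trem2, named here after its values were seen, was called on all 3 backgrounds, at 1.14, 1.49 and 1.95.

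Of 12 type I interferon response genes, 8 were called in PS/E2H vs E2H, 0 in PS/E3H vs E3H and 7 in PS/E4H vs E4H, with list medians of 1.72, 0.59 and 1.36. Ifit1, an antiviral effector, was at 1.75 (adjusted p = 0.0245), 0.97 (adjusted p = 0.0727) and 1.61 (adjusted p = 0.0181). Ifitm3, which blocks viral entry, was at 1.02, 0.80 and 1.28 (called in the first and last), and Ifit2 at 0.44, 0.55 and 0.59 (called in none). In PS/E3H vs E3H, 5 of the 12 had an unadjusted p below 0.05 by edgeR. The difference between this list and the members was not tested.

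The summed FPKM of 10 microglia markers ran from 130 to 156 in the parental mice and from 142 to 315 in the PS19 mice. Of these markers 0, 2 and 3 were called higher (among them Fcrls in PS/E3H vs E3H and PS/E4H vs E4H), 4, 7 and 8 had an unadjusted p below 0.05 by edgeR, and P2ry12, a homeostatic marker, was at -0.27, 0.02 and 0.06, not called. The sum over 7 markers of border-associated macrophages ran from 2.97 to 5.49 in parental and from 5.71 to 10.3 in PS19 mice, with 0, 2 and 3 called (6 of 7 had an unadjusted p below 0.05 by edgeR in each comparison). F13a1, a coagulation factor of macrophages, was at 1.28 (adjusted p = 0.0703), 1.39 (adjusted p = 0.0197) and 1.65 (adjusted p = 4.49e-04), and Stab1, a scavenger receptor, at 0.76, 0.29 and 0.30, not called. The macrophage sums of parental and PS19 mice did not overlap, the microglia sums overlapped in PS/E2H (142 to 264) alone, and their part in the members' results was not tested.

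For blood cells, none of 6 monocyte markers was called (1, 5 and 3 had an unadjusted p below 0.05 by edgeR). Ccr2, the monocyte chemokine receptor, was at 0.50, 1.31 and 1.46, with a mean of 0.0963 FPKM over the 21 mice. Ace, the highest of the list at a mean of 6.52 FPKM, was at 0.67, 0.40 and 0.66. The list sum, mostly that of Ace, ran from 5.50 to 7.59 in parental and 8.14 to 13.1 in PS19 mice. Of 10 T cell markers, 0, 0 and 1 (Cd3g, named after its values were seen) were called. Trbc2, the highest of the list at a mean of 10.2 FPKM, was at -0.42, 0.45 and -0.20, not called. Trac was at -0.16, 1.06 and 0.32 and Cd4 at -0.25, -0.12 and -0.23, not called. The sums of the T cell list overlapped (8.97 to 17.9 in parental and 9.55 to 18.8 in PS19 mice), with Trbc2 its largest part. Cd3d and Cd8b1 were at 0 in all E3H and all E4H mice. Of 5 neutrophil markers 0, 0 and 1 (S100a8, at -0.30, 4.17 and 5.46) were called, and the sum reached 43.7 in a PS/E3H mouse and 24.9 in a PS/E4H mouse, against 0.331 to 11.95 in parental mice. Of 6 B cell markers, Cd22 was called on all 3 backgrounds (2.66, 3.26 and 3.93), a gene that microglia also express, and Ighm, the highest of the list, was not (-0.08, 0.58 and 0.87). Of 5 NK cell markers none was called, and their sum stayed at or below 0.446 FPKM. Markers with too few counts were not tested and could not be called. In the 3 tau comparisons, 2, 3 and 2 NK cell markers and 6, 7 and 6 T cell markers were tested. The tested numbers were 3, 3 and 4 for neutrophils, 4, 4 and 4 for B cells and 6, 6 and 5 for monocytes. The part of these cells in the members' results was not tested.

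Among the remaining lists, no neuron marker was called (Snap25 at -0.23, -0.18 and -0.20), 1 of 3 astrocyte markers was called in PS/E4H vs E4H (Aqp4, 1.03, adjusted p = 0.00567), and no oligodendrocyte (Mbp at 0.13, 0.50 and 0.55) or choroid plexus marker (Ttr at 0.30, -0.06 and 0.48) was called. At an unadjusted p below 0.05, edgeR had 2203 of 20617, 4541 of 21251 and 6282 of 20844 genes in the 3 tau comparisons, the background for all such counts of list genes. It had 1, 1 and 3 of 3 neuron markers, 2, 3 and 3 of 3 astrocyte markers, 0, 3 and 3 of 3 oligodendrocyte markers, 0 choroid plexus markers, 0, 1 and 1 T cell markers, 0, 2 and 4 neutrophil markers and 1, 0 and 1 NK cell markers.

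**Figure D4:**
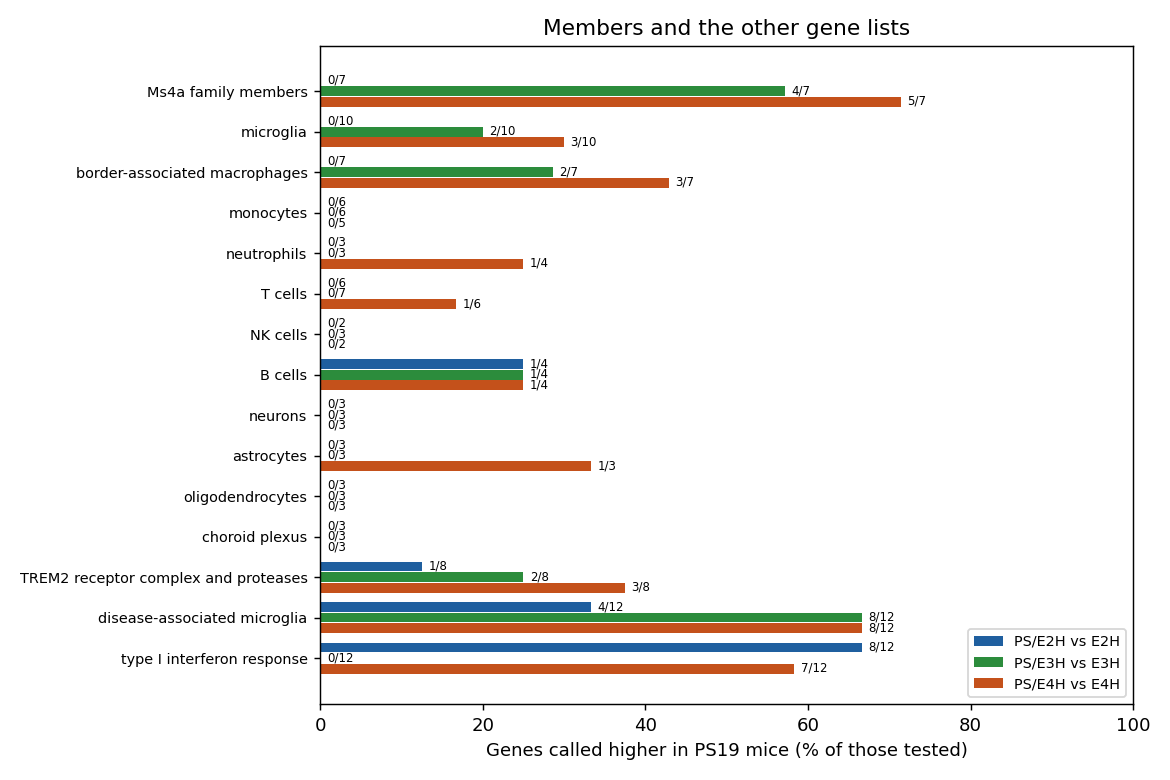
Share of the tested genes of each list that were called higher in PS19 over parental mice (x axis, percent; y axis, lists), with one bar per APOE background and the count called over the count tested beside it. The Ms4a members have 0, 4 and 5 of 7, the disease-associated microglia genes 4, 8 and 8 of 12, and the type I interferon genes 8, 0 and 7 of 12.

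Across the 21 mice, the members most alike in log2 CPM were Ms4a6c and Ms4a6d (Pearson r = 0.93) and Ms4a6b and Ms4a6d (r = 0.88). Ms4a4b and Ms4a4c, with the most similar coding sequences, had r = -0.06. Their counts were low (0 to 31 and 0 to 58 per mouse), and counting noise limits such an r. Outside the family, among 22863 genes, Ms4a6d was closest to Fcgr2b (r = 0.96), the inhibitory IgG receptor, Osmr (0.95) and Fcgr3 (0.95). Ms4a6c was closest to Fcgr3 (0.95), Gpr65 (0.95), an acid-sensing receptor, and Gfap (0.95), the astrocyte filament. Ms4a7 was closest to Ggta1, Rab7b and Tbxas1 (0.96, 0.96 and 0.95), and Ms4a6b to Txnip, F3 and Tlr7 (0.92, 0.91 and 0.90). Ms4a4a was closest to Zc3h12a, Slc35f6 and Pon2 (0.92, 0.89 and 0.88), Ms4a4c to Atp6v0e, Cebpd and Adssl1 (0.84, 0.82 and 0.82), and Ms4a4b to Gm6365, Dennd5a and Gpr137b (0.78, 0.78 and 0.77). These values are descriptions over 21 mice in 6 groups, and the points include the gap between parental and PS19 mice. With each group's mean removed, Ms4a6d kept r = 0.81 with Fcgr2b, Ms4a7 kept 0.89 with Rab7b, and Ms4a4a had 0.47 with Zc3h12a.

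Ms4a6c and Ms4a6d were called in PS/E4H vs E4H under all 9 other settings and in all 7 fits that left out 1 mouse. In PS/E3H vs E3H the count of called members ran from 1 to 5 when 1 mouse was left out, falling to 1 without E3H mouse 1, 2 or 3 or without PS/E3H mouse 4 and to 2 without PS/E3H mouse 3, and Ms4a6c was called in all 7. In PS/E2H vs E2H, 1 member (Ms4a6d) was called without PS/E2H mouse 2.

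**Figure D5:**
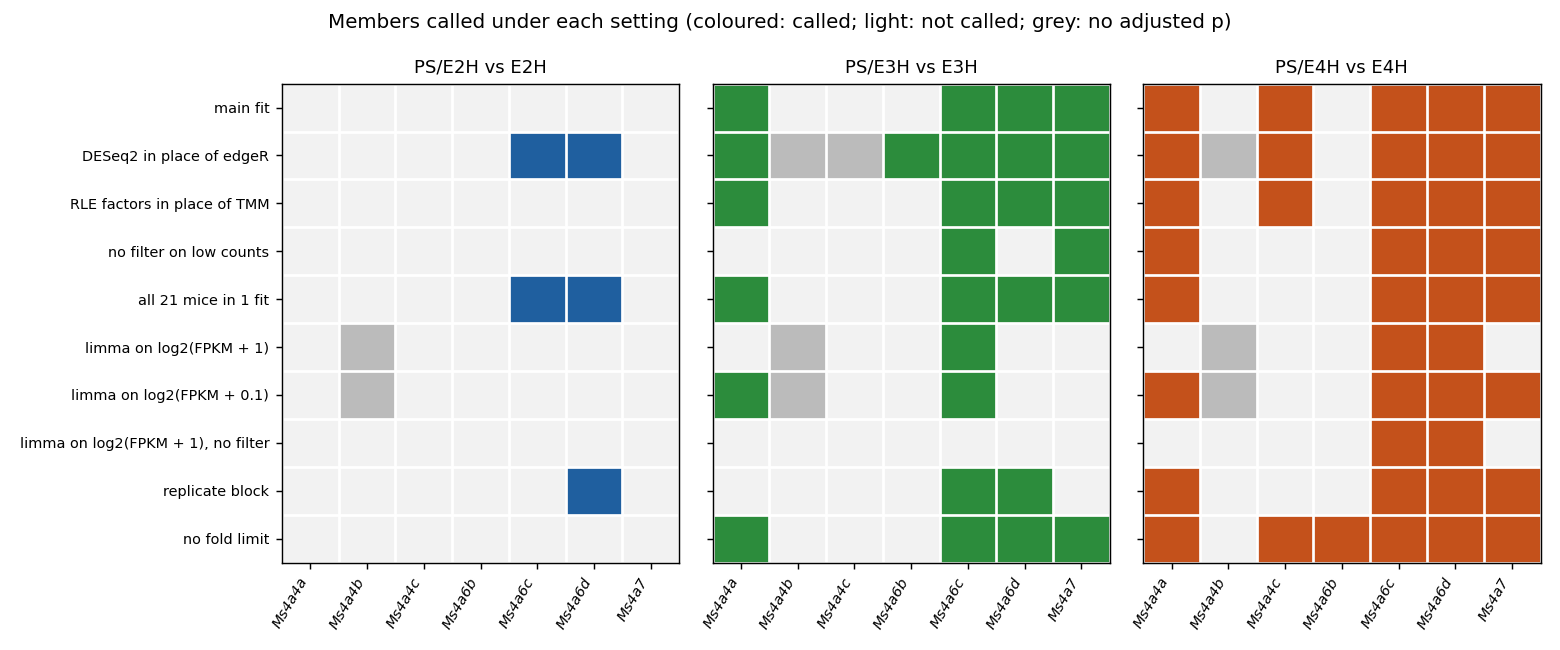
Calls of each member (x axis) under the settings tried (y axis) in the 3 tau comparisons (panels), coloured where called, light where not called and grey where no adjusted p was given. Ms4a6c is coloured in 9 of 10 settings on the E3 background and Ms4a6c and Ms4a6d in 10 of 10 on the E4 background.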

How the data were processed

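RNA of 21 mouse forebrains was sequenced as poly(A)-selected, stranded, paired-end libraries. Per the labels and the study's methods, the authors trimmed reads with Cutadapt, aligned them with HISAT2 to the mouse genome (GRCm38.p5 in the submitters' processing notes) and assembled and quantified them with StringTie. Tool versions are not given in the sources used here. The authors deposited a gene count table (55401 genes, 59265500 to 75932200 counts per library) and an FPKM table (37538 genes). Low counts were most often 4, then 1, and how many counts 1 read is worth was not settled. Reads of near-identical Ms4a genes may be shared between them.

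Counts were normalized by TMM and filtered with filterByExpr (minimum count 10, minimum total 15) on the groups compared. Each comparison was tested with edgeR 4.0.16's quasi-likelihood test in R 4.3.3 with Benjamini-Hochberg adjustment over all genes tested. A gene was called at an adjusted p below 0.05 and a 2-fold change (interactions: adjusted p alone). Alternatives were DESeq2 1.42.0, RLE factors, no filter, 1 fit of all 21 mice, limma 3.58.1 on log2(FPKM + 1) or log2(FPKM + 0.1) with a minimum mean FPKM of 0.1 or no filter, a replicate block, no fold limit, and leaving out each mouse. The fits were tested on simulated data. Replicates are separate mice.

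The 7 members were named throughout. From each of 14 lists (microglia, border-associated macrophages, monocytes, neutrophils, T cells, NK cells, B cells, neurons, astrocytes, oligodendrocytes, choroid plexus, TREM2 receptor complex and proteases, disease-associated microglia, type I interferon response), the gene of highest FPKM and those of largest and smallest mean tau fold change were named. For each member, the 3 genes of highest Pearson r were named. The members and lists were chosen with earlier results of these data known. Sequences came from RefSeq (GRCm38.p6) and gene models from GENCODE. Ms4a6d had no promoter entry. Same-numbered mice did not deviate together (30 pairs, correlations from -0.120 to 0.0950), so the numbers were not used as pairs. The result of 1 marker gene is not reported here.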

Additional observations from a re-analysis of the deposited data

Results flagged for a closer look

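Among 21 groups of 4 mice examined (7 members in 3 PS19 groups), 2 held a mouse whose gap to the nearest other mouse, divided by the range of the group, exceeded Dixon's critical value for 4 samples. Chance flags about 1 in 20 groups. Ms4a4c in PS/E2H had a ratio of 0.852, with mouse 4 at 0.978 CPM and the others at 0.230 to 0.341 CPM. Ms4a7 in PS/E2H had a ratio of 0.875, with mouse 3 at 2.34 CPM and the others at 0.506 to 0.735 CPM. The flagged mice were different animals.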

How the results depend on the processing

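The number of members called in PS/E2H vs E2H, 0 with edgeR, was 2 with DESeq2 and in 1 fit of all 21 mice, 1 with the replicate block and 0 to 1 when each mouse was left out. In PS/E3H vs E3H, 4 became 5 with DESeq2, 2 with no filter on low counts, 1 with limma on log2(FPKM + 1), 2 on log2(FPKM + 0.1), 0 on log2(FPKM + 1) with no filter, 2 with the replicate block, and 1 to 5 with a mouse left out. In PS/E4H vs E4H, 5 became 2 with limma on log2(FPKM + 1) with and without a filter, 4 with no filter on low counts, in the fit of all 21 mice, with limma on log2(FPKM + 0.1) and with the replicate block, 6 with no fold limit, and 4 to 6 with a mouse left out. A pseudocount of 1 shrinks the fold change of genes this low by construction, and for the other changes the cause was not tested. E4H vs E3H and E4H vs E2H went from 0 to 1 in the fit of all 21 mice, and the E4H to E2H interaction from 0 to 1 with DESeq2. Ms4a4b in PS/E2H vs E2H turned to -0.39 without E2H mouse 1 and -0.03 without E2H mouse 2, and ranged from -0.39 to 1.11 with a mouse left out. Over 481 alternatives of 30 results on single genes, 421 kept direction and call, 44 lost the call, 14 gained it and 2 reversed. Over all genes, calls in PS/E2H vs E2H (100) were 270 with DESeq2, 55 with no filter, 208 in the fit of all 21 mice, 33 and 16 with limma on log2(FPKM + 1) with and without a filter, 150 with the replicate block, 155 with no fold limit, and 30, 31, 43 and 58 without E2H mouse 1, E2H mouse 3, PS/E2H mouse 1 and PS/E2H mouse 3. Those in PS/E3H vs E3H (281) were 173 with no filter, 59 and 4 with limma on log2(FPKM + 1) with and without a filter, 184 on log2(FPKM + 0.1), 157 with the replicate block, 1141 with no fold limit, 77, 126 and 96 without E3H mouse 1, 2 and 3, and 494 and 149 without PS/E3H mouse 1 and 4. Those in PS/E4H vs E4H (621) were 132 and 116 with limma on log2(FPKM + 1) with and without a filter, 3252 with no fold limit and 384 without E4H mouse 2. In the 6 APOE comparisons, in the order of the report, 30, 21, 39, 22, 4 and 22 calls became 76, 32, 86, 67, 22 and 85 with DESeq2 and 7, 11, 11, 1, 1 and 8 with limma on log2(FPKM + 1) with no filter. The interactions E4H to E3H, E2H to E3H and E4H to E2H had 0 calls with edgeR and 11, 8 and 118 with DESeq2. By the correlation of their deviations the replicate numbers did not pair the mice, although 5 of 6 mice in PS/E2H vs E2H correlated best with the mouse of their own number, against 2 of 6 in PS/E3H vs E3H and 0 of 6 in PS/E4H vs E4H. The block called Ms4a6d in PS/E2H vs E2H (adjusted p = 0.0491). Depth limits Ms4a4a, Ms4a4b and Ms4a4c, which had under 100 counts in all mice.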
